A study of Mus musculus with 2 samples.

Results

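The nuclear-encoded subunits of the respiratory chain were described in liver RNA of 2 libraries, 1 labelled Lrg1 knockout and 1 labelled wild type. Members were taken by gene symbol, as every symbol that begins with Ndufa, Ndufb, Ndufc, Ndufs or Ndufv and a number (with Ndufab1), with Uqcr, with Cox4 to Cox8 and a letter, or with Atp5, together with Sdha, Sdhb, Sdhc and Sdhd. This gave 86 of the 22609 gene symbols in the files, of which 36 were placed with complex I, 4 with complex II, 8 with complex III, 21 with complex IV and 17 with complex V. Of the 86 symbols, 81 encode subunits. The other 5 match the pattern by name. Atp5s is now Dmac2l and like coupling factor B, and Atp5sl is now Dmac2 and a complex I assembly factor. Cox4nb is now Emc8 of the endoplasmic reticulum membrane complex, and Ndufa4l2 is a paralogue of Ndufa4. Cox7a2l is known from supercomplexes of complexes III and IV, and its activity in mice of this strain was not examined. Cyc1 of complex III and Usmg5 of complex V do not match the pattern and are given beside their complexes.

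Both libraries came from the liver of male mice of strain C57BL/6 that ate a diet with 45% of its calories from fat for 16 weeks from 8 weeks of age, with C57BL/6J mice as the wild type. The knockout is of the whole body, so no Cre driver limits it to a cell type, and its deleted stretch is not given in the labels. With 1 library per genotype there was no replicate error and no test between genotypes; ratios carry 95% intervals for counting error only. Whether each library pools several mice is not stated. Lrg1 itself, a secreted glycoprotein made by hepatocytes, had 17572 reads in the library labelled Lrg1 knockout, against 26958 reads in the wild-type library, a ratio of 0.766 (0.751 to 0.780). Reads of the targeted gene were thus abundant in both libraries and go against a loss of the transcript, so the first is called by its label throughout; reads outside a deleted part would check nothing.

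The respiratory chain lies in the inner mitochondrial membrane. Complex I takes electrons from NADH and complex II from succinate, both pass them to coenzyme Q, complex III moves them on to cytochrome c, and complex IV gives them to oxygen. Complexes I, III and IV pump protons, and complex V, the ATP synthase, lets the protons flow back to make ATP. Most subunits are encoded in the nucleus and imported, and they join a smaller set encoded in mitochondrial DNA. None of the 13 gene symbols of that set was found among the symbols counted, so the set was not analysed here. In hepatocytes the chain also takes the electrons from fatty acid oxidation, and NRF1, GABPA, YY1, ERR alpha and the PGC-1 coactivators are known regulators of its nuclear genes.

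Promoters are shown first, since a pair of short motifs known from these genes was found more often in the members' promoters than in others, a property of the genome and not of the libraries. RefSeq promoters on build GRCm38.p6 ran from 250 bases before to 50 bases after each annotated start and were matched for 70 of the 86 symbols, which gave 76 promoters. Matches were exact and counted on both strands. The core of the NRF1 motif, CGCATGCG, was in 9 of the 76 promoters (11.8%), in 3.75% of the 11696 promoters of measured genes and in 1.87% of all 32851 promoters. The core also lay before the start of members not shown here, such as Ndufa8, Atp5g2 and Atp5l. The following 60-base stretches, read on the gene's strand, are shown because they place the core before the start in genes of complexes I, IV and V, among them Atp5k, which had the highest ratio of the members with at least 50 reads; capitals mark the NRF1 core. They lie before the start of Atp5k at chr5:108434415-108434474 (minus strand), of Ndufa11 at chr17:56717677-56717736 (plus strand), of Atp5j at chr16:84835090-84835149 (minus strand) and of Cox6a1 at chr5:115349086-115349145 (minus strand).
Atp5k: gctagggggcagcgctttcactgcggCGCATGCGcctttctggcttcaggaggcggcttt
Ndufa11: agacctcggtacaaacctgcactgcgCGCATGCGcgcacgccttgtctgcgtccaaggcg
Atp5j: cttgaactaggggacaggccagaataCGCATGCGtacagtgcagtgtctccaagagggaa
Cox6a1: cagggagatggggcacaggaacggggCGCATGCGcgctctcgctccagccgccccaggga

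The YY1 motif, searched as AAGATGGC, was in 12 of the 76 promoters (15.8%), in 4.43% of the promoters of measured genes and in 2.75% of all promoters. Of the 12 matches, 9 lay after the annotated start on the gene's own strand, and all 9 began between base 22 and base 38 after it. Such a placed match was in 11.8% of members' promoters, in 2.06% of those of measured genes and in 0.865% of all promoters. The 6 stretches below are shown because their motif stands within that short stretch in genes of complexes I and V; capitals mark it. They lie at chr19:44555393-44555414 (minus strand) in Ndufb8, chr13:114388045-114388069 (minus strand) in Ndufs4, chr6:126849098-126849125 (minus strand) in Ndufa9, chr10:80249463-80249490 (plus strand) in Ndufs7, chr7:3617385-3617412 (plus strand) in Ndufa3 and chr5:145191501-145191528 (minus strand) in Atp5j2.
Ndufb8: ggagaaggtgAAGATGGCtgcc
Ndufs4: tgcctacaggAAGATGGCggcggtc
Ndufa9: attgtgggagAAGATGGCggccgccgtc
Ndufs7: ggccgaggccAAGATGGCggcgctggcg
Ndufa3: cgccaagaacAAGATGGCcgggagtaag
Atp5j2: ccaggacttcAAGATGGCgtcactcggt

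Shares of the other motifs searched are given for members' promoters and then for those of measured genes. The shorter NRF1 site TGCGCA, which can overlap the core, was in 25% of members' promoters and 13.4% of those of measured genes, and the ETS motif CCGGAAG bound by GABPA in 21.1% and 17.3%. The SP1 motif GGGGCGGGG was in 15.8% of members' promoters, below the 21.1% of measured genes, and TATAAA was in 10.5% against 7.50%. The cyclic AMP response element TGACGTCA was in 4 members' promoters (5.26% against 2.90%) and the ERR alpha motif TCAAGGTCA in 2 (2.63% against 0.274%). In all promoters the shares were 7.76% for TGCGCA, 8.86% for ETS, 11.4% for SP1, 13.6% for TATAAA, 1.79% for TGACGTCA and 0.423% for TCAAGGTCA. A match is a description of these letters and not of a bound factor. Among others, the promoters of Atp5a1, Cox4i1, Cox4i2, Cox4nb, Cox6a2, Cox6c, Cox8c, Ndufa2, Ndufa4l2, Ndufb9, Ndufs1, Sdhc, Uqcrb, Uqcrc2 and Uqcrq were not used here.

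The members' mRNA stood close to equal in the 2 libraries. Of the 86 members, 74 had at least 50 reads over both libraries and are called measured, as were 11411 genes in all. The measured members' median log2 ratio of the library labelled Lrg1 knockout over wild type was 0.02, against -0.01 over all measured genes, after scaling the libraries by the trimmed mean of M-values (TMM). The interquartile range was -0.13 to 0.09 for the members and -0.22 to 0.19 for all measured genes. Within 0.1 of 0 lay 38 of the 74 members (51.4%), against 26.7% of all measured genes. The ratio was above 1 for 40 members and below 1 for 34 (45.9%, against 51.7% of all measured genes), but with total-count scaling 52 were above 1 and 22 below. That scaling moved all genes together: the median went from -0.01 to 0.07 over all measured genes and from 0.02 to 0.10 for the members. Changes of sign with total-count scaling given below are to be read against that common shift. The mean of the members' log2 ratios was -0.01, of opposite sign to the median.

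No measured member was 2-fold apart in either direction, where 1.70% of all measured genes stood at least 2-fold higher in the library labelled Lrg1 knockout and 2.50% at least 2-fold lower. A smaller bound, at least 25% higher or at least 20% lower, was also used, which is the same fold in either direction. None of the members was 25% higher, against 15.0% of all measured genes, and 2 were 20% lower (2.70%), against 16.7%. These 2 were Atp5s, with 122 reads in the library labelled Lrg1 knockout, against 190 reads in wild type, and Cox5b, with 499 and 751 reads. With total-count scaling 3 members, Atp5k, Ndufb9 and Cox5a, were 25% higher and 1 was 20% lower. Of all 11411 measured genes, 2379 were 25% higher and 1410 were 20% lower with that scaling, against 1710 and 1906 with TMM. Just inside the bound were Atp5k at a ratio of 1.248 and Ndufs3 at 0.803. The counting interval of the ratio included 1 for 33 of the 74 members, lay below 1 for 22 and above 1 for 19. Over all 11411 measured genes it included 1 for 5866, lay below 1 for 3037 and above 1 for 2508. Differences larger than counting error were thus common among all genes as well as among the members, where they were small in size.

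**Figure D1:**
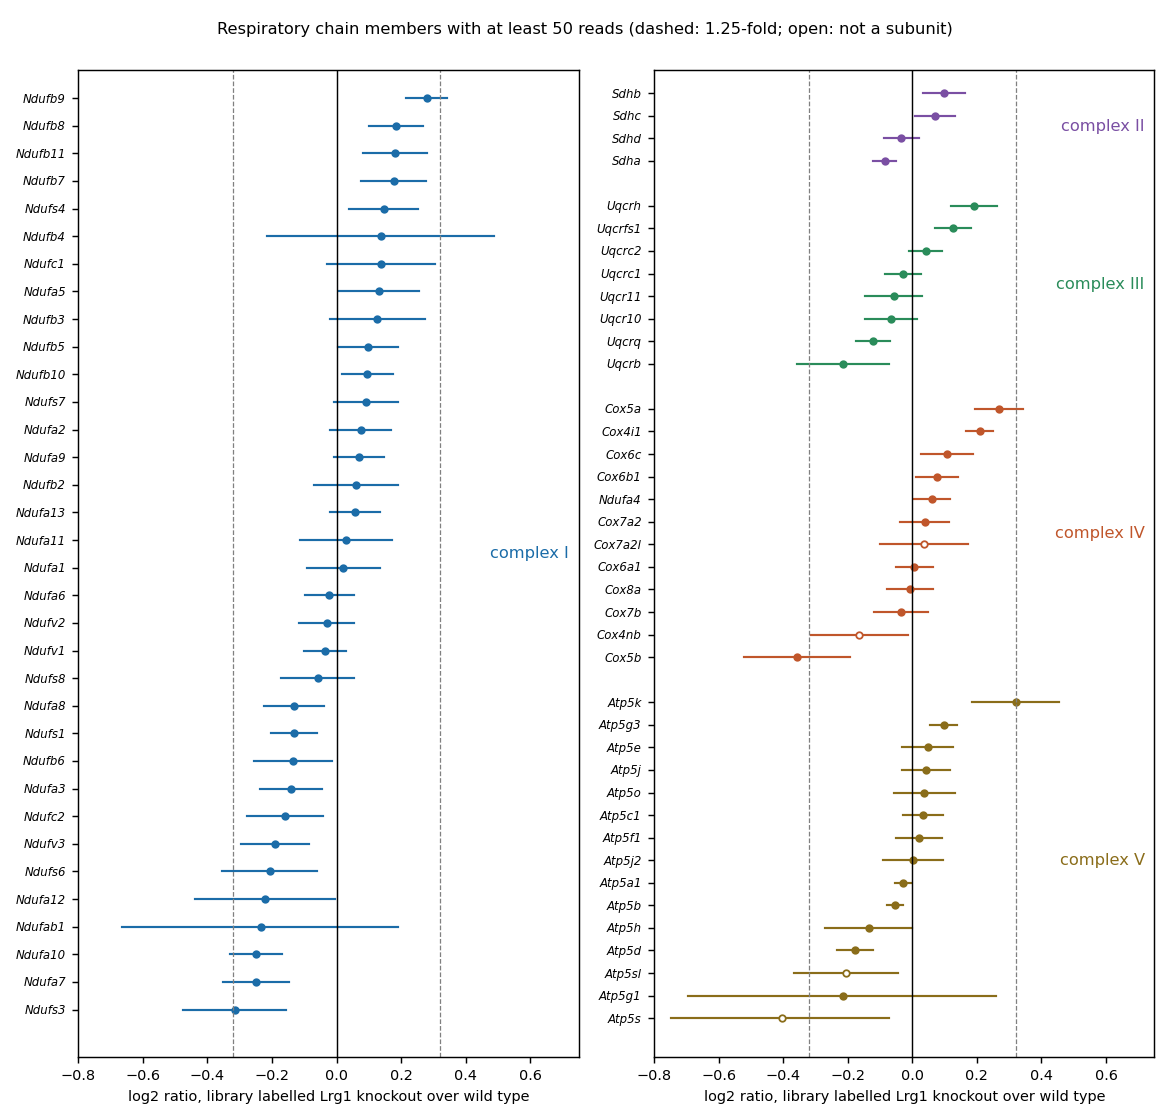
Log2 ratio of the library labelled Lrg1 knockout over wild type for measured members, by complex, with 95% counting intervals as horizontal bars; dashed lines mark 25% higher and 20% lower and open points the symbols that are not subunits. Points run from -0.41 for Atp5s to 0.32 for Atp5k, and complexes I to V each have members on both sides of 0.

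Subunit mRNAs are abundant and short, and both properties were set beside the ratios. Of the 74 measured members, 56 lay in the top 25% of measured genes by level, above 48.4 CPM (reads scaled to 1000000 per library). In that range of levels the median log2 ratio over all genes was -0.06 and 60.7% of genes had a ratio below 1, while the 56 members had a median of 0.03 and 23 were lower. The interquartile range there was -0.06 to 0.10 for the members and -0.23 to 0.09 for all genes, and none of the 56 was 25% higher or 20% lower, against 7.01% and 16.1% of the genes in that range. By length, 58 members lay in the shortest 20% of transcripts, up to 1577 bases, with a median of 0.04 against -0.002 for all genes of that range. These splits describe 2 libraries and were not tested.

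**Figure D2:**
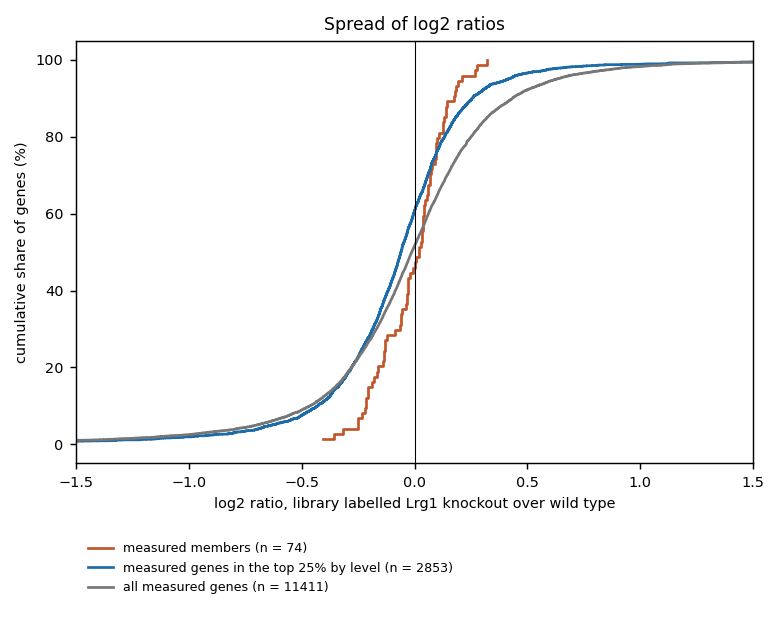
Cumulative share of genes, in percent, by log2 ratio of the library labelled Lrg1 knockout over wild type, for the 74 measured members, the 2853 genes in the top 25% by level and all 11411 measured genes. The members' line climbs over a narrower range than the other lines, from -0.41 to 0.32.

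Summed reads gave the same near equality. All 86 members held 225858 reads in the library labelled Lrg1 knockout, against 264053 reads in the wild-type library, or 1.21% and 1.13% of gene reads, and the scaled ratio was 1.005 (0.999 to 1.010). By complex the summed ratio was 1.008 (0.996 to 1.019) for complex I, 0.983 (0.967 to 0.9999) for complex II, 1.004 (0.988 to 1.020) for complex III, 1.061 (1.046 to 1.076) for complex IV and 0.986 (0.976 to 0.995) for complex V. Complex IV stood highest. Each of the 4 other scalings tried moved ratios upward from TMM, so a sum above 1 could not fall below it. The sums of complexes II and V moved above 1 with total-count scaling, to 1.04 in both. In bulk tissue, fewer cells of a type and less RNA per cell cannot be told apart.

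Complex I is the largest of the 5, with a matrix arm that holds the redox centres and a membrane arm that pumps protons. Of its 35 measured members, 19 stood higher in the library labelled Lrg1 knockout and 16 lower, with a median log2 ratio of 0.03 but a mean of -0.01, and with total-count scaling 23 were higher and 12 lower. The 7 core subunits, which carry the flavin and iron-sulfur clusters or line the quinone site, had a median of -0.04, with 2 higher and 5 lower, which total-count scaling turned to 0.05, with 5 higher and 2 lower. Ndufs1, which holds several iron-sulfur clusters, had 2798 reads in the library labelled Lrg1 knockout, against 3603 reads in wild type (log2 ratio -0.13). The NADH-binding subunit Ndufv1, with 3402 and 4098 reads, was at -0.04. The core subunit Ndufs3, in the quinone-binding part of the matrix arm, was the lowest of the complex: 541 reads in the library labelled Lrg1 knockout, against 791 reads in wild type, a ratio of 0.803 (0.719 to 0.897).

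The 28 measured accessory subunits of complex I, which surround the core, had a median of 0.06, with 17 higher and 11 lower. The 4 highest of them all belong to the membrane-arm series named Ndufb. Ndufb9, which binds the acyl carrier subunit, had 4232 reads in the library labelled Lrg1 knockout, against 4097 reads in wild type, more reads in the shallower library, and a ratio of 1.213 (1.162 to 1.267). Ndufb8 had 2242 and 2318 reads (log2 ratio 0.18), and the X-linked Ndufb11 had 1615 and 1674 reads (0.18). At the low end stood Ndufa7, a matrix-arm subunit, with 1335 and 1866 reads (-0.25), and Ndufa10, a membrane-arm subunit on the matrix side, with 2213 and 3091 reads (-0.25). Both intervals lay below 1. Ndufab1, the mitochondrial acyl carrier protein, had 81 and 112 reads, and its interval of 0.630 to 1.141 was too wide to place it on either side.

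Complex II, the succinate dehydrogenase of the citric acid cycle, is the complex without a subunit from mitochondrial DNA. Its 4 subunits split evenly around 0, with 2 higher and 2 lower (3 higher and 1 lower with total-count scaling). The flavoprotein Sdha had 11828 reads in the library labelled Lrg1 knockout, against 14745 reads in wild type (log2 ratio -0.09, interval of the ratio 0.920 to 0.965). The iron-sulfur protein Sdhb had 3695 and 4059 reads (0.10). The membrane anchors stood on either side of 0, Sdhc with 3885 and 4346 reads (0.07) and Sdhd with 5210 and 6266 reads (-0.03, but above 0 with total-count scaling). No subunit of complex II was more than 0.1 from 0 with TMM scaling.

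Complex III passes electrons through the Rieske iron-sulfur protein and cytochromes. Its 8 members had a median of -0.04, with 3 higher and 5 lower, and the median turned to 0.04 with total-count scaling, with 6 higher and 2 lower, and to 0.02 without the 20 most abundant genes. Uqcrfs1, the Rieske protein, had 4920 reads in the library labelled Lrg1 knockout, against 5298 reads in wild type (0.13), and the hinge protein Uqcrh had 3119 and 3210 reads (0.19, interval of the ratio 1.086 to 1.199). The core protein Uqcrc2 had 5624 and 6421 reads (0.04). The lowest were the small subunits Uqcrb, with 700 and 955 reads (-0.22), Uqcrq, with 5157 and 6597 reads (-0.12), and Uqcr10, with 2272 and 2794 reads (-0.07, but 0.02 with total-count scaling). Cyc1, the cytochrome c1 of the same complex, had 4115 and 4646 reads (0.06), inside the range of the 8.

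In complex IV, cytochrome c oxidase, nuclear-encoded subunits surround a catalytic core of mitochondrial origin. Of its 12 measured members, 8 stood higher in the library labelled Lrg1 knockout and 4 lower, with a median of 0.04 (10 higher and 2 lower with total-count scaling). Cox5a, which faces the matrix, had 2913 reads in the library labelled Lrg1 knockout, against 2843 reads in wild type, a ratio of 1.204 (1.143 to 1.268). Cox4i1, an early-assembling subunit, had 9229 and 9382 reads and a ratio of 1.156 (1.123 to 1.189). Cox6c had 2345 and 2557 reads (log2 ratio 0.11). Cox5b, the zinc-binding neighbour of Cox5a on the matrix side, stood opposite, with 499 and 751 reads and a ratio of 0.781 (0.696 to 0.875). Of the symbols that are not subunits, Cox4nb had 635 and 836 reads (-0.16), and Cox7a2l had 834 and 956 reads (0.04).

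Complex V consists of the catalytic F1 head and of the Fo part in the membrane with its ring of c subunits and its stalks. Its 15 measured members had a median log2 ratio of 0.00 and a mean of -0.04, with 8 higher and 7 lower, and with total-count scaling 10 were higher and 5 lower. The F1 subunits beta and alpha had the most reads of all members: Atp5b had 24081 reads in the library labelled Lrg1 knockout, against 29394 reads in wild type (-0.06), and Atp5a1 had 23057 and 27658 reads (-0.03). Both of these ratios moved above 1 with total-count scaling. Atp5d, the F1 delta subunit, was the lowest of F1, with 4553 and 6050 reads and a ratio of 0.884 (0.851 to 0.919). The other extreme was Atp5k, subunit e at the contact of synthase dimers, with 919 reads in the library labelled Lrg1 knockout, against 865 reads in wild type and a ratio of 1.248 (1.136 to 1.371). The measured Fo and stalk subunits had a median of 0.03, with 5 higher and 1 lower, and F1 a median of -0.03, with 2 higher and 3 lower, which total-count scaling turned to 0.05, with 4 higher and 1 lower. F1 epsilon, Atp5e, had 2496 and 2838 reads (0.05). Atp5sl, which is not a subunit, had 553 and 749 reads (-0.21). Usmg5, a small membrane subunit of the synthase outside the name pattern, had 46 and 76 reads (-0.49), with an interval of the ratio, 0.482 to 1.039, that included 1.

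Levels of different genes were compared as CPM per kilobase (kb) of transcript, with the length of the shortest principal transcript of GENCODE M21. By complex, the median level of measured subunits was 91.9 CPM per kb in the library labelled Lrg1 knockout, against 85.8 in wild type for complex I, 189.6 and 191 for complex II, 202 and 199 for complex III, 256 and 248 for complex IV, and 171 and 167 for complex V. Complex I thus stood lowest and complex IV highest in both libraries. The highest members were Uqcrq, at 660.3 and 719 CPM per kb, Atp5b, at 652 and 677, Atp5g3, at 644 and 602, and Cox4i1, at 642 and 556.

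Several subunits of complex IV exist as a form used in most tissues and a form known from muscle, lung or testis, and the liver libraries held the first kind. Cox6a1 had 4538 reads in the library labelled Lrg1 knockout, against 5311 reads in wild type, and the heart and muscle form Cox6a2 had 1 and 0. Cox7a2 had 2630 and 3010 reads, and the muscle form Cox7a1 had 19 and 14. Cox8a had 2867 and 3386 reads, the muscle form Cox8b had 1 and 2, and the testis form Cox8c had 0 in both libraries. Per kb the general forms stood far above the restricted forms in both libraries: the lowest general form, Cox7b, was at 107 and 110.1 CPM per kb, and the highest restricted form, Cox7a1, at 2.51 and 1.57. The lung form Cox4i2 had 2 and 1 reads beside Cox4i1. Cox6b1 had 3555 and 3963 reads and the testis form Cox6b2 had 5 and 4, while Cox7b had 2074 and 2497 and its testis form Cox7b2 had 0 in both libraries. Ndufa4, first assigned to complex I and now placed in complex IV, had 4815 and 5421 reads, while Ndufa4l2, its hypoxia-inducible paralogue, had 16 and 26. A count of 0 allows up to 0.156 CPM in the library labelled Lrg1 knockout, against 0.132 CPM in wild type.

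Marker lists bear on which cells the livers held. The 10 hepatocyte markers were all measured and summed to 102357 CPM in the library labelled Lrg1 knockout, against 116145 CPM in wild type. Albumin (Alb) alone gave 64406 and 79170 CPM, and the other 9 summed to 37951 and 36975 CPM, the other way round. None of 11 striated muscle markers was measured, with 31 reads in all in each library, and 4 testis germ cell markers had 0 reads in both. Of 6 brown adipocyte markers 2 were measured and Ucp1 was at 0 in both libraries; the list summed to 13.6 and 84.8 CPM, of which Cidea gave 1.56 and 73.6. Of 6 white adipocyte markers 2 were measured, and Lep, Plin1 and Retn were at 0 in both; the list summed to 14.9 and 43.2 CPM, of which Cfd gave 5.39 and 31.4. Of 5 erythroid markers the 4 globin genes were at 0 in both libraries and Alas2 had 135.2 and 111 CPM. Only uniquely aligned reads were counted, and whether the globin genes share sequence with other genes was not looked up. Their counts of 0 thus do not show that red cell RNA was absent. The 6 markers of liver endothelium summed to 273 and 170.5 CPM, and 7 of Kupffer cells to 359.6 and 443 CPM. Both lists were mixed in direction. For endothelium 5 genes had a ratio above 1, while Lyve1 went the other way at 0.719 (0.610 to 0.847). For Kupffer cells 6 genes had a ratio below 1, while Clec4f went the other way at 1.110 (1.048 to 1.175). The part of these cell types in the members' ratios was not tested.

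**Figure D3:**
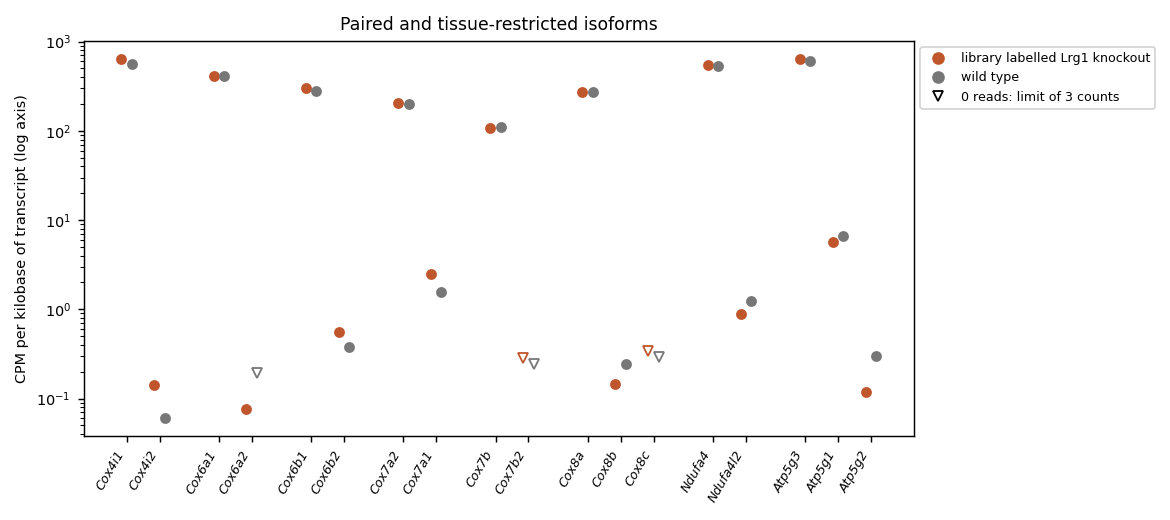
Level in CPM per kb of transcript, on a log axis, of paired and tissue-restricted isoforms, in the library labelled Lrg1 knockout (left point of each gene) and in wild type (right point); open triangles mark the limit that a count of 0 allows. General forms such as Cox4i1, at 642 and 556 CPM per kb, stand far above restricted forms such as Cox7a1, at 2.51 and 1.57. Atp5g1 and Atp5g2 share nearly all their coding sequence with other genes, so their points may lie below their mRNA levels.

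The c ring of complex V is built from the products of Atp5g1, Atp5g2 and Atp5g3, which differ in their import sequence and give the same mature protein. Atp5g3 had 8862 reads in the library labelled Lrg1 knockout, against 9733 reads in wild type (log2 ratio 0.10). Atp5g1 had 66 and 90 reads (-0.21, interval of the ratio 0.617 to 1.197), and Atp5g2 had 1 and 3. Per kb the 3 genes stood at 644, 5.74 and 0.12 CPM in the library labelled Lrg1 knockout and at 602, 6.67 and 0.30 CPM in wild type, the same order in both.

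The 12 members under 50 reads were the 8 restricted forms Cox4i2, Cox6a2, Cox6b2, Cox7a1, Cox7b2, Cox8b, Cox8c and Ndufa4l2 and 4 subunits known from all tissues. Of those 4, Ndufs5 of complex I had 0 reads in both libraries, Cox7c of complex IV had 19 in the library labelled Lrg1 knockout, against 11 in wild type, Atp5l, subunit g of complex V, had 12 in each, and Atp5g2 had 1 and 3. The members nearest the bound were Ndufa4l2, with 42 reads in all, below it and Atp5g1, with 156, above it. No ratio is given for the 12.

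These 4 subunits share coding sequence with other genes. The files count a read only where its alignment was unique, and reads were 50 bases long, so each member's coding sequence was cut into all its 50-base windows and each window was looked up, in exact form and on both strands, in the GENCODE M21 transcripts of all other genes. Every window of Cox7c, Atp5l and Atp5g2 and 72.5% of those of Ndufs5 were found in another gene. Over whole transcripts the shares were 53.0% for Cox7c, 84.8% for Atp5l, 100% for Atp5g2 and 41.2% for Ndufs5. Whether this sharing accounts for the low counts was not tested. The first coding window of each of the 4 subunits, from the start codon, is shown because it is the same, base for base, in the other gene. The Ndufs5 gene lies on chromosome 4 and its match BC002163 on chromosome 16. Cox7c lies on chromosome 13 and its match Gm12338 on chromosome 11. Atp5l lies on chromosome 9, with matches Gm10221 on chromosome 5, Atp5l2-ps on chromosome 11 and Gm30934 on chromosome 9, and Atp5g2 on chromosome 15, with Gm10175 on chromosome 7 and Gm10231 on chromosome 17.
Ndufs5: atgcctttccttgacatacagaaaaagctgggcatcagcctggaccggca
Cox7c: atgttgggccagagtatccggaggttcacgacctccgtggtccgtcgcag
Atp5l: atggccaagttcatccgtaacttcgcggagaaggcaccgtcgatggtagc
Atp5g2: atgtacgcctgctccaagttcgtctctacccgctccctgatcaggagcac

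The measured members with nearly all coding windows shared were also low. Ndufb4 (100% shared) had 133 reads in the library labelled Lrg1 knockout, against 142 in wild type, Ndufab1 (99.8%) had 81 and 112, and Atp5g1 (99.7%) had 66 and 90. Over whole transcripts the shares were 37.0% for Ndufb4, 31.2% for Ndufab1 and 66.0% for Atp5g1. The 6 members with at least 99% shared stood at or below 7.10 CPM per kb in the library labelled Lrg1 knockout, against 6.67 in wild type; the groups by shared windows were set after these values were seen. Over their whole transcripts, 18.9% of measured members and 9.89% of all measured genes had more than 25% of windows shared. The 15 members with over 50% shared had a median of 14.3 and 16.7 CPM per kb, against 132 and 117 for the 43 with none shared and 106 and 102 for the 28 with a smaller share. The same grouping gave median log2 ratios of -0.14 (11 measured), of -0.02 (35), which total-count scaling turned to 0.06, and of 0.04 (28). Cox5b (61.5%) and Uqcrb (72.9%), both low in ratio, were in the first group, with Cox6c (53.6%), which was higher in the library labelled Lrg1 knockout. BC002163, the gene that shares with Ndufs5, had 183 and 173 reads. Alignments that were not unique made up 58.0% of lines in the library labelled Lrg1 knockout, against 50.3% in wild type; their part in the ratios was not tested.

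**Figure D4:**
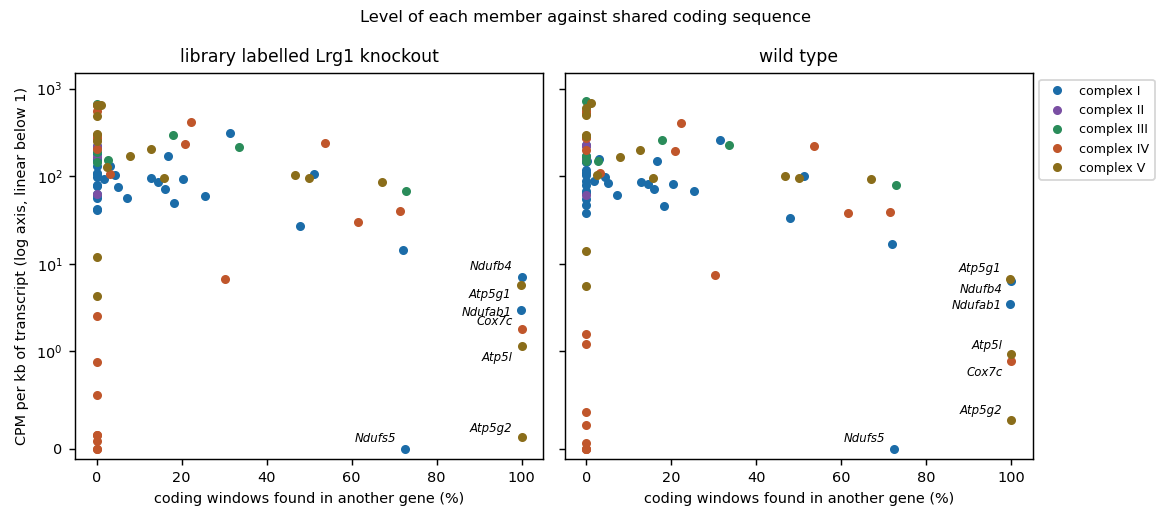
Level of each member in CPM per kb (log axis, linear below 1) against the share of its 50-base coding windows found in another gene, in percent, for the library labelled Lrg1 knockout (left) and wild type (right), coloured by complex. The members at 99% or more, such as Ndufb4 and Atp5l, all stand at or below 7.10 CPM per kb, and Ndufs5 is at 0 in both libraries.

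Members were also split by promoter motif among the 62 measured members with a promoter. The 7 with the NRF1 core had a median log2 ratio of 0.01, with 4 higher and 3 lower (6 and 1 with total-count scaling), and the 55 without it 0.02, with 29 higher and 26 lower (38 and 17). The 11 with the YY1 motif had a median of 0.04, with 8 higher and 3 lower, and the 51 without it -0.01, with 25 higher and 26 lower, which total-count scaling turned to 0.08, with 36 higher and 15 lower. Of the 7 with the NRF1 core, the 4 whose promoters are shown were the higher ones, Atp5k at 0.32, Atp5j at 0.04, Ndufa11 at 0.03 and Cox6a1 at 0.01, and the lower ones were Uqcrc1 at -0.03, Uqcr11 at -0.06 and Ndufa8 at -0.13. Of the 6 shown with the YY1 motif, Ndufb8 was at 0.18, Ndufs4 at 0.15, Ndufs7 at 0.09, Ndufa9 at 0.07, Atp5j2 at 0.0011 and Ndufa3 at -0.14. The genes with a match in the same place that are not shown were Ndufc1 at 0.14, Atp5sl at -0.21 and Ndufs6 at -0.21.

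Several genes that assemble or feed the chain stood farther from 0 than any of its measured members. Among 16 complex I assembly factors, 6 stood higher in the library labelled Lrg1 knockout and 10 lower, with a median log2 ratio of -0.04 that turned to 0.05 with total-count scaling (10 higher, 6 lower). Acad9, an assembly factor related to acyl-CoA dehydrogenases, had 480 reads in the library labelled Lrg1 knockout, against 897 reads in wild type, a ratio of 0.629 (0.561 to 0.703). Ndufaf7, a methyltransferase, listed as 2410091C18Rik, had 237 and 408 reads (-0.55), and Nubpl, which delivers iron-sulfur clusters, had 175 and 147 (0.48). Among 23 complex IV factors, 9 were higher and 14 lower (median -0.04, but 0.04 with total-count scaling, with 14 higher and 9 lower). The copper chaperone Sco2 had 1380 and 1176 reads (0.46), Higd1a, a hypoxia-induced modulator of complex IV, had 127 and 250 (-0.74), and Coa6 had 444 and 682 (-0.39). Of these 6 genes, Coa6 alone lay inside the range of the 74 members.

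The remaining assembly lists were small. Complex II factors had a median of 0.02 over 4 genes (mean -0.02), with Sdhaf4, listed as 1110058L19Rik, at -0.29, Sdhaf1 at 0.15 and Sdhaf3, listed as Acn9, at 0.10. Complex III factors had a median of -0.06 over 6 genes, which turned to 0.02 with total-count scaling, with Bcs1l, which inserts the Rieske protein, at 216 and 338 reads (-0.41), Ttc19 at 0.20 and Uqcc2, listed as 2900010M23Rik, at -0.11. Complex V factors had a median of 0.05 over 4 genes, with Atpaf1 at 37 and 31 reads (0.48), the synthase inhibitor Atpif1 at 156 and 229 (-0.32) and Atpaf2 at 0.06. The interval of the Atpaf1 ratio, 0.846 to 2.337, included 1.

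Coenzyme Q synthesis had 2 genes higher and 11 lower of 13, with a median of -0.18. With total-count scaling the median was -0.10, with 4 higher and 9 lower. Over all measured genes 51.7% had a ratio below 1 with TMM scaling. Coq4 had 137 reads in the library labelled Lrg1 knockout, against 251 reads in wild type (-0.64) and the methyltransferase Coq5 had 542 and 835 (-0.39), while Coq8a, a kinase-like protein listed as Adck3, had 6907 and 5517 (0.56). Summed reads of the list stood higher in the library labelled Lrg1 knockout, at 673 CPM against 603 CPM in wild type. Adck3, the gene of the list with the most reads, gave 358 CPM and 244 CPM of these sums. Count and sum thus differ in direction. The citric acid cycle had 4 higher and 10 lower of 14, with a median of -0.14 (-0.06 with total-count scaling). The isocitrate dehydrogenase genes Idh3g and Idh2 had 1036 and 1532 reads (-0.33) and 2130 and 3054 reads (-0.29). Among electron carriers and entry enzymes the median was 0.03 (mean -0.03). Proline dehydrogenase, Prodh, had 2625 and 5455 reads (-0.82), cytochrome c, Cycs, had 185 and 146 (0.57), and Dhodh of pyrimidine synthesis had 148 and 218 (-0.33).

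Regulators of mitochondrial biogenesis split near evenly, 13 higher and 12 lower (16 and 9 with total-count scaling), with a median of 0.04 (mean -0.03). The coactivator Ppargc1b had 61 reads in the library labelled Lrg1 knockout, against 180 reads in wild type, a ratio of 0.398 (0.293 to 0.535), the 1 gene of these lists past 2-fold, while its relative Ppargc1a had 211 and 239 reads (0.05). Sirt1, a deacetylase of Ppargc1a, had 357 and 261 reads (0.68) and the nuclear receptor Esrrg had 99 and 184 (-0.66). Of the listed factors whose motifs were searched above, Nrf1 had 204 and 233 reads (0.04), Gabpa 964 and 1154 (-0.03), Yy1 706 and 834 (-0.01) and Esrra 705 and 880 (-0.09). Creb1, which binds the cyclic AMP response element, had 446 and 476 reads (0.14). With total-count scaling Nrf1 stood at 0.12, Gabpa at 0.06, Yy1 at 0.07, Esrra at -0.0048 and Creb1 at 0.22. Of the inner membrane carriers, 4 of 7 were measured, with a median of -0.15: Ucp2 at 697 and 1082 reads (-0.40), Slc25a5 at 2896 and 4243 (-0.32) and Slc25a4 at 104 and 98 (0.32).

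**Figure D5:**
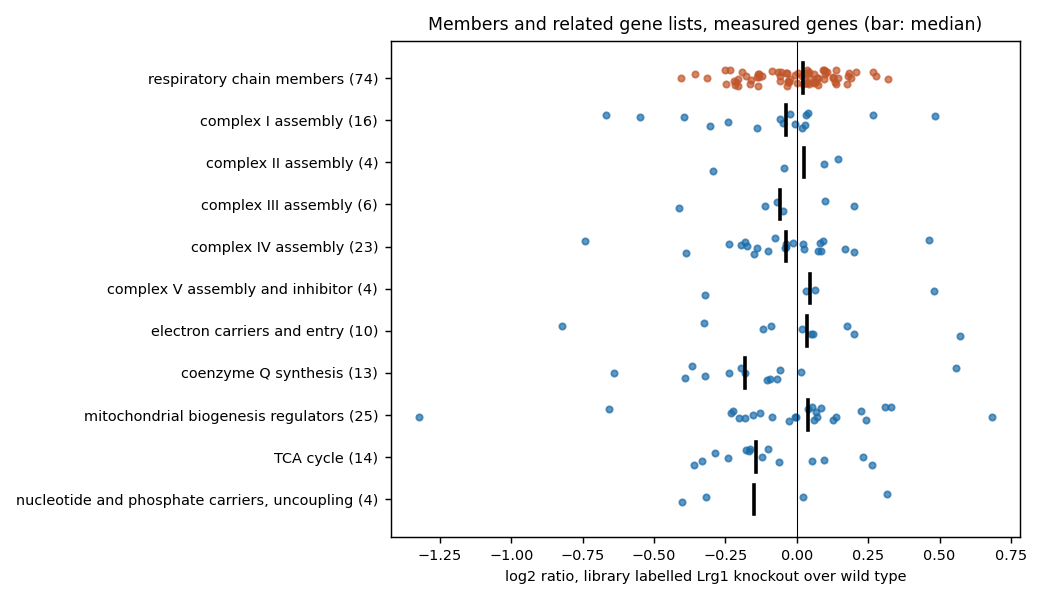
Log2 ratio of the library labelled Lrg1 knockout over wild type for the measured members and for the measured genes of 10 related lists, with the number of genes in brackets; each point is a gene and each bar a median. The 74 members run from -0.41 to 0.32, while single genes of the other lists reach -1.32 (Ppargc1b) and 0.68 (Sirt1).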

How the data were processed

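RNA-seq libraries were made from about 500 ng of liver total RNA by oligo-dT enrichment with a kit that keeps strand, for single-end sequencing of 50 bases, per the labels' protocols. Raw counts of reads per gene symbol were deposited by the authors, made with bcl2fastq, TopHat2 and HTSeq on mm9 per the submitters' processing notes; versions, gene annotation and strand setting are not stated, so overlapping antisense genes are uncertain. Lines naming no gene entered no library size; reads outside genes were 14.4% of uniquely aligned reads for the library labelled Lrg1 knockout and 14.0% for wild type, and reads in more than 1 gene 0.234% and 0.231%. Gene reads numbered 18738397 for the library labelled Lrg1 knockout and 23311906 for wild type, so 1 read was 0.0519 and 0.0441 CPM.

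Counts were scaled by TMM (edgeR 4.0.16, R 4.3.3; factors 1.03 and 0.972) and log2 ratios took a prior count of 0.5. Ratios have exact Clopper-Pearson intervals at 95% given the sum of both counts (scipy 1.17.1), computed with a script tested on simulated data. They cover counting error only, and without molecular identifiers reads may be copies of 1 molecule. A gene was measured with at least 50 reads in all; folds of 2 and 1.25 (25% higher or 20% lower) were counted, with no test. The alternatives were total-count, upper-quartile and DESeq2 1.42.0 scaling, scaling that leaves out the 20 most abundant genes, a prior count of 2, the wild-type library thinned to equal depth, minimums of 1, 10 and 200 reads, a 1.5-fold bound, means and subunits alone. Named were Lrg1, members at least 1.25-fold apart, the 3 highest and 3 lowest and the 2 with most reads of each complex, paired isoforms, members under 50 reads, and in each related list the 3 genes farthest from 0; other names were added after their values were seen. Single values of 1 member and of 1 related gene are not reported here. The members and lists were chosen with earlier results of these data known. Older symbols were matched through RefSeq synonyms. GENCODE M21 gave transcript lengths and shared windows; promoters came from RefSeq on GRCm38.p6, a build other than mm9, so coordinates are those of the promoter table alone.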

Additional observations from a re-analysis of the deposited data

Results flagged for a closer look

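Outside the gene counts, the line for alignments that were not unique held 30368128 entries for the library labelled Lrg1 knockout and 27554856 for wild type. These made up 58.0% and 50.3% of all counted lines, a signal in data that no comparison between genes used. The line is larger in the library with fewer gene reads, and none of its entries is assigned to a gene in the deposited files.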

How the results depend on the processing

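With 1 library per genotype no result has a replicate error, and no library could be left out. No paired analysis was possible because the groups share only replicate number 1, with 1 library each. Total-count scaling shifted the members' log2 ratios by 0.08 and scaling without the 20 most abundant genes by 0.06, so that 12 and 11 members changed direction. The median over all measured genes moved as well, from -0.01 to 0.07 and to 0.05. Each other scaling moved ratios upward from TMM, so the 40 members higher with TMM had to stay higher. Under every scaling 22 members were lower. With total-count scaling Lrg1 was at -0.30, the medians were 0.10 for complex II, 0.039 for III, 0.12 for IV, 0.084 for V, 0.12 for electron carriers and -0.060 for the citric acid cycle, 22 members had a ratio below 1, and the summed ratios of complexes I to V were 1.07, 1.04, 1.06, 1.12 and 1.04. Without the 20 most abundant genes Lrg1 was at -0.33, the complex II median at 0.078, and the sums at 1.05, 1.02, 1.05, 1.11 and 1.03. Upper-quartile scaling gave sums of 1.02 for complex I and 0.998 for complex V. Members at least 25% higher numbered 3 with total-count scaling, 3 without the 20 most abundant genes, 1 with upper-quartile scaling, 2 with a minimum of 10 reads and 5 with no minimum beyond 1 read. Members at least 20% lower numbered 1 under the first pair of scalings, 1 among subunits alone and 5 with no minimum. With no minimum 1 member was 2-fold higher and 1 was 2-fold lower. With the minimum of 50 reads and TMM scaling, 0 members were 2-fold lower and 2 were at least 20% lower. Means in place of medians turned all members (-0.01), complex I (-0.01), complex V (-0.04), carriers (-0.03), regulators (-0.03) and complex II factors (-0.02). Over all measured genes, 1710 were 25% higher and 1906 were 20% lower and 667 and 789 were 1.5-fold higher and lower. Past 2-fold, minimums of 10, 200 and 1 read gave 458, 100 and 1243 genes higher and 525, 166 and 1449 lower. At the smaller bound, a minimum of 200 reads gave 1135 genes higher, and no minimum gave 3354 higher and 3640 lower. The inner membrane carriers stood at -0.32 with a minimum of 10 reads and -0.36 with none. Fewer reads limit the rest: Atp5g1, Ndufab1 and Ndufb4 have intervals that include 1.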
